A study of Homo sapiens with 8 samples.

Results

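The 9 genes described here were epithelial keratins: KRT7, KRT8, KRT10, KRT17, KRT18, KRT19, KRT23, KRT80 and KRT81. They were matched by symbol among the 26235 genes of the count tables. KRT17 was chosen by its measured log2 fold changes against the control, which were high with all 3 compounds, so its changes against the control are given as a description without a test, and the other 8 were added as further members of the keratin family. HepG2 is an established human hepatocellular carcinoma line, and every group came from this line grown without phenol red in charcoal-stripped serum. Before treatment, all cells were starved for 16 h in 0.1% FBS. Control cells received DMSO as the vehicle, and treated cells received 17β-estradiol (E2), PPT, an agonist selective for estrogen receptor alpha, or DPN, an agonist selective for estrogen receptor beta, each at 1 µM for 48 h. RNA-seq counts of 2 libraries per group were analysed, 8 libraries in all. The series describes triplicate profiles, so the stated replication is higher than the libraries used here. No label or method stated whether the 2 libraries of a group came from separate cultures, so p-values measured only the spread between these libraries, which may be technical.

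Keratins form the intermediate filaments of epithelial cells. A type I keratin and a type II keratin pair to make a filament, and the filaments are anchored at desmosomes, the junctions that hold neighbouring cells together. Hepatocytes carry KRT8 (type II) and KRT18 (type I) almost alone, whereas KRT7 (type II) and KRT19 (type I) are known as keratins of bile duct cells. KRT17 is a type I keratin of basal and appendage epithelium that is known to be induced in stressed or wounded skin. KRT10 is the type I keratin of differentiating epidermis, and KRT23 (type I) and KRT80 (type II) are less studied epithelial keratins. KRT81 is a type II hair keratin.

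The libraries held between 25103160 and 29670814 counts. All 9 hepatocyte markers, such as ALB and APOA1, passed the filter on low counts, and their summed level was 51403 to 52839 CPM (counts scaled to a common library total) in the control, 70793 to 74216 with E2, 34483 to 37827 with PPT and 34539 to 35676 with DPN. The sum hides opposite moves with E2, where 5 of the 9 rose and 2 fell, beside 30.8% and 31.8% of all tested genes. ALB went from a mean of 10407 CPM in the control to 20149 with E2, and AFP from 15714 to 10674. Of the 8 stratified epithelium markers matched in the files, KRT5, TP63, IVL and SPRR1B had no count in any library, and the summed level of the list was 8.44 to 11.1 CPM in the control, 16.4 to 19.1 with E2, 9.21 to 10.7 with PPT and 6.96 to 7.76 with DPN. Markers of other cell types were low but moved with treatment. Fibroblast markers summed to 33.2 to 33.4 CPM in the control, 51.5 to 52.4 with E2, 19.58 to 19.64 with PPT and 14.2 to 15.8 with DPN, and 4 of the 7, collagens among them, had at most 3 counts in any library. Endothelial markers summed to 4.03 to 4.26, 7.41 to 7.78, 1.83 to 2.71 and 2.91 to 3.16 CPM in the same order. They did not move together with E2. CDH5 had 8 and 3 counts in the control and 82 and 76 with E2, and VWF 12 and 17 and then 70 and 71. PECAM1 went the other way, from 112 and 98 counts in the control to 22 and 29 with E2. Leukocyte markers summed to 14.8 to 15.2, 29.8 to 32.4, 15.9 to 19.1 and 24.0 to 25.2 CPM. The 2 that were tested moved in opposite directions with E2. CD68 went from a mean of 9.12 CPM in the control to 29.4 with E2, and CD14 from 5.86 to 1.52. The part of these levels in the keratin results was not tested. In RNA from a whole culture, fewer cells of a type and less RNA per cell cannot be told apart.

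Because the reads were single-end and 50 bases long, the sequence that keratins share with each other sets how well a read can be placed. On the canonical GENCODE transcripts, 17.4% of all 50-base runs of KRT17 also occurred in transcripts of 10 other genes, mostly KRT17 pseudogenes. Only 16 of these runs were shared with KRT16 and 14 with KRT14, which are type I keratins of basal and wounded epidermis. The stretches below, from the coding region and read along the gene on the minus strand (GRCh38), are shown because a 50-base read from their capitals could not be assigned to KRT17 or its relative. The first lies in exon 4 of KRT17, at chr17:41621597-41621679, and the capitals mark 59 bases identical in KRT14.
KRT17: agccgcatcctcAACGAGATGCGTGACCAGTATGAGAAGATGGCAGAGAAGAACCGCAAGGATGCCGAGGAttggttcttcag
KRT14: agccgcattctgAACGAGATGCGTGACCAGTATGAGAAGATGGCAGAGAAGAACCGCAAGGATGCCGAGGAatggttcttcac
The second lies in exon 6 of KRT17, at chr17:41620659-41620743, and the capitals mark 61 bases identical in KRT16.
KRT17: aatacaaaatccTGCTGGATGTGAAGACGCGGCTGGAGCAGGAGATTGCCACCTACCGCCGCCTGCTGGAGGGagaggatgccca
KRT16: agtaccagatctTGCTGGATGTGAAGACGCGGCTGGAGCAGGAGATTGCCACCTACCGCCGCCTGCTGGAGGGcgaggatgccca
The KRT14 stretch differed from KRT17 at 4 of the 83 printed bases and the KRT16 stretch at 5 of 85, all outside the capitals. KRT14 and KRT16 each had at most 3 counts in any library, so the KRT17 counts were not accompanied by counts of these relatives. KRT8 and KRT18, which have many processed copies in the genome, shared 39.2% and 35.3% of their runs with 36 and 43 other genes, whereas KRT10 and KRT23 shared none, KRT80 0.418% and KRT19 1.79%. KRT81 shared 44.6% of its runs. The levels of KRT8 and KRT18 are therefore less certain than those of KRT10, KRT19, KRT23 and KRT80, to the extent that reads from such copies were counted.

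KRT17 lies on chromosome 17 (41619442 to 41624842, minus strand, 8 exons). It had 11 and 17 counts in the control libraries, 68 and 41 with E2, 152 and 141 with PPT, and 251 and 263 with DPN. Every treated library was above both control libraries, and the 4 groups did not overlap. After scaling, these counts were 0.355 and 0.576 CPM in the control, 3.04 and 1.73 with E2, 5.57 and 4.72 with PPT, and 8.69 and 9.04 with DPN. The group means were 0.465 ± 0.157 CPM in the control, 2.38 ± 0.930 under E2, 5.15 ± 0.601 under PPT and 8.86 ± 0.240 under DPN (SD, n = 2). The fitted log2 fold changes against the control were 2.35 ± 0.35 (SE) with E2, 3.46 ± 0.31 with PPT and 4.25 ± 0.30 with DPN, which were 5.08-fold, 11.0-fold and 19.0-fold. The highest value of any other tested member was 0.78, for KRT23 with PPT. KRT17 was chosen for its rise with every compound, so its place above the other members restates the choice. A rise above a log2 fold change of 1.5 at an adjusted p under 0.01 was met under E2 by 7.15% of all tested genes, under PPT by 1.90% and under DPN by 1.92%.

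The compounds also differed from each other in KRT17, although these values come from the treated libraries that chose the gene. KRT17 was 3.73-fold lower under E2 than under DPN (log2 difference -1.90, 95% interval -2.40 to -1.40, adjusted p = 1.22e-07, edgeR). It was 2.16-fold lower with E2 than with PPT (log2 difference -1.11, interval -1.63 to -0.60, adjusted p = 0.000364). With DPN it was 1.72-fold higher than with PPT (log2 difference 0.79, interval 0.34 to 1.23, adjusted p = 0.00511).

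**Figure D1:**
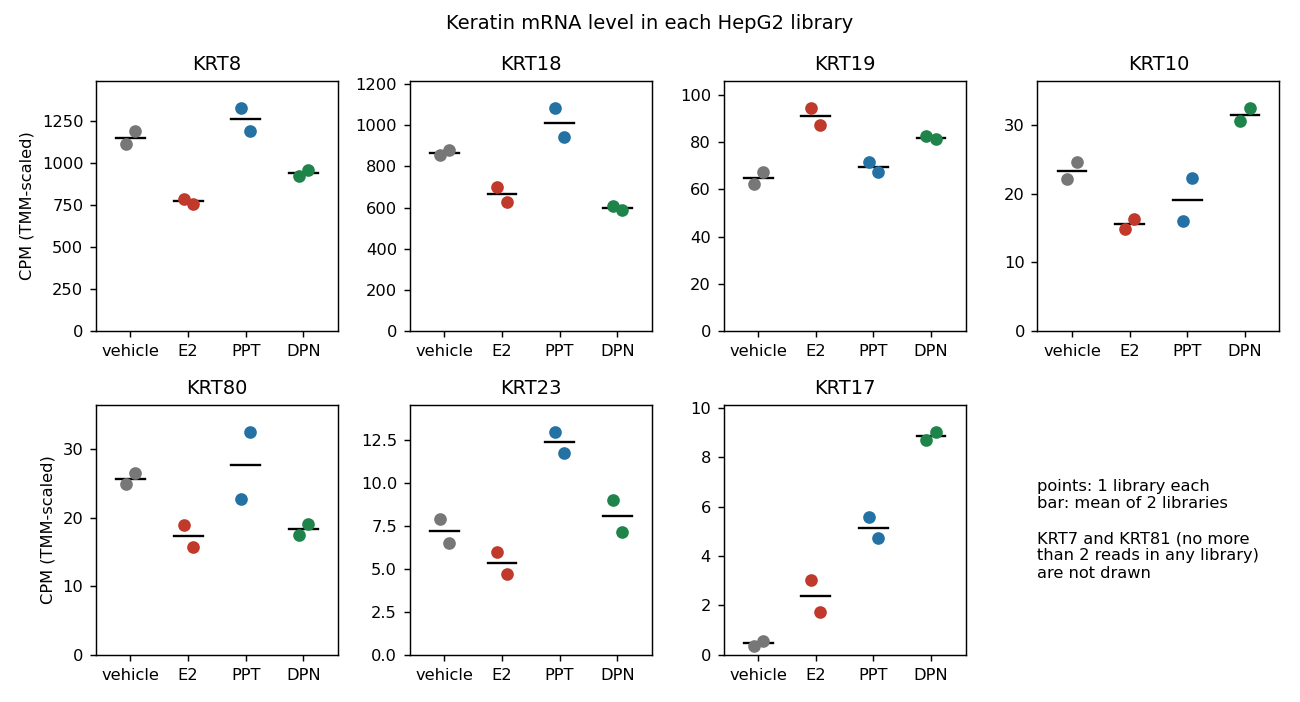
Level of each of the 7 tested keratins in every library, in CPM after TMM scaling on a linear axis from 0 that differs between genes, for the control (vehicle), E2, PPT and DPN. Each point is 1 library and each bar is the mean of 2 libraries. KRT17 separates the 4 groups, from 0.355 CPM in a control library to 9.04 CPM in a DPN library, while KRT8 and KRT18 lie between 589 and 1325 CPM.

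KRT8 and KRT18, the hepatocyte pair, made up most of the keratin RNA. KRT8 lies on chromosome 12 (52897187 to 52949954, minus strand) next to KRT18 (52948871 to 52952906, plus strand). The KRT8 gene model overlaps KRT18 through transcripts that start upstream, and whether the counting used the strand is not given in the sources used here, so reads of such transcripts and of KRT18 cannot be told apart. KRT8 was at 1108 and 1190 CPM in the control, 787 and 755 with E2, 1325 and 1189 with PPT, and 922 and 957 with DPN. Its E2 and DPN libraries were below both control libraries, and its PPT libraries overlapped the control. KRT8 fell by 0.58 ± 0.06 on the log2 scale with E2 (adjusted p = 1.48e-08, 1.49-fold) and by 0.29 ± 0.06 with DPN (adjusted p = 0.000451). With PPT the difference was 0.13 (95% interval -0.00 to 0.26, adjusted p = 0.103), and it passed without PPT library 2 (0.21, adjusted p = 0.0123).

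KRT18 was at 856 and 878 CPM in the control, 700 and 627 with E2, 1083 and 941 with PPT, and 608 and 589 with DPN. No treated group overlapped the control. KRT18 fell by 0.39 ± 0.07 on the log2 scale with E2 (adjusted p = 2.42e-05) and by 0.53 ± 0.07 with DPN (adjusted p = 3.31e-07). With PPT it rose by 0.22 ± 0.07 (adjusted p = 0.00901), a call lost without PPT library 1 (0.12, adjusted p = 0.182) or without control library 1 (adjusted p = 0.0722). Both genes of the pair were higher with PPT than with either other compound. KRT8 differed between E2 and PPT by -0.70 (adjusted p = 3.16e-10) and between DPN and PPT by -0.42 (adjusted p = 8.83e-06), and KRT18 by -0.61 (adjusted p = 1.76e-08) and -0.76 (adjusted p = 2.63e-09).

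The pair was also compared between E2 and DPN. KRT8 was lower under E2 than under DPN (log2 difference -0.28, adjusted p = 0.000386), whereas for KRT18 the difference was 0.15 in the other direction and missed the threshold (95% interval 0.01 to 0.29, adjusted p = 0.0632). It passed with upper-quartile scaling (0.20, adjusted p = 0.0131), without E2 library 2 (0.22, adjusted p = 0.0225) and without either PPT library (adjusted p = 0.0318 and 0.0319). With library-size scaling it turned to -0.05 (adjusted p = 0.543), while the median of all genes in this comparison moved by -0.20. Divided by transcript length, the ratio of KRT8 to KRT18 was 1.03 and 1.07 in the control libraries, 0.891 and 0.954 with E2, 0.969 and 1.00 with PPT, and 1.20 and 1.29 with DPN. The ratio was lowest in the E2 libraries and highest in the DPN libraries, and no 2 groups overlapped. It was not tested.

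**Figure D2:**
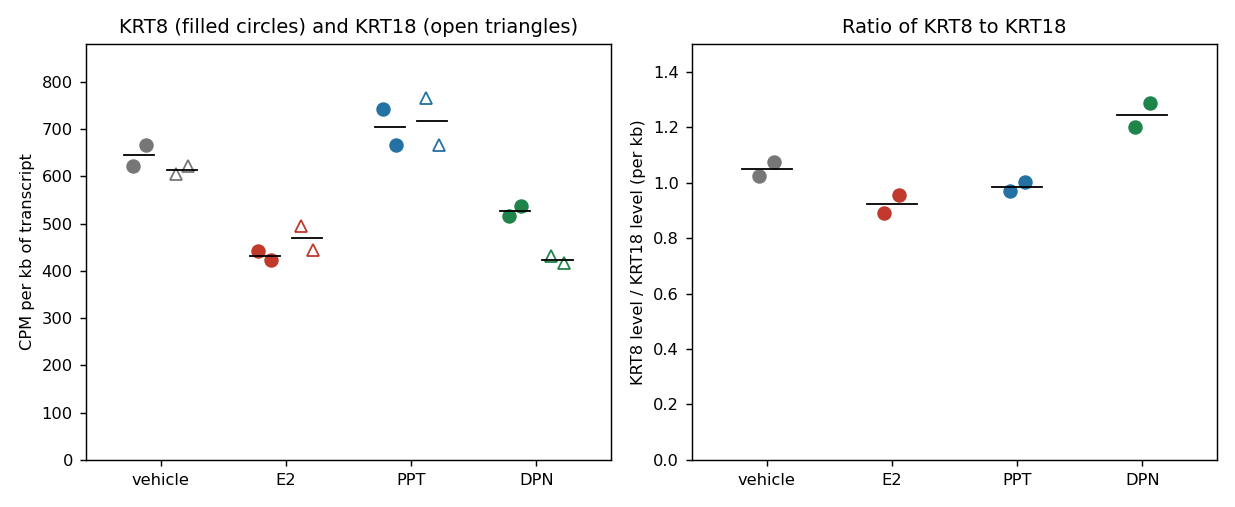
Levels of KRT8 (filled circles) and KRT18 (open triangles) in CPM per kilobase of the canonical transcript (left), and their ratio (right), in the 8 libraries, with 1 library per point and the mean of 2 libraries as a bar. The ratio lies at 0.891 and 0.954 with E2 and at 1.20 and 1.29 with DPN, with the control and PPT in between.

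On the same per-length scale, the control means were 644 CPM per kilobase for KRT8, 613 for KRT18, 46.6 for KRT19, 10.9 for KRT10, 6.63 for KRT80, 3.26 for KRT23 and 0.307 for KRT17. KRT8 and KRT18 overlapped between the control libraries, and the later neighbours in this order did not. With DPN, KRT17 reached a mean of 5.84 CPM per kilobase and lay above KRT80 at 4.72 and KRT23 at 3.65. KRT8 and KRT18 together held 94.9% of the per-length level of the 9 members in the control, 91.7% with E2, 94.96% with PPT and 91.5% with DPN. KRT17 made up 0.0453% of the type I level in the control, 0.284% with E2, 0.432% with PPT and 1.15% with DPN.

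KRT19, a type I keratin of bile ducts and hepatic progenitors, moved in the opposite direction to KRT8 with E2 and DPN. It lies on chromosome 17 (41523617 to 41528308, minus strand). KRT19 was at 62.2 and 67.4 CPM in the control, 94.5 and 87.3 with E2, 71.4 and 67.5 with PPT, and 82.5 and 81.2 with DPN. Every E2 and DPN library was above every control and PPT library. With E2, KRT19 rose by 0.49 ± 0.08 on the log2 scale (adjusted p = 3.38e-06) and by 0.34 ± 0.08 with DPN (adjusted p = 0.00053). The PPT difference of 0.10 did not pass (95% interval -0.06 to 0.26, adjusted p = 0.302). E2 and DPN differed from each other by 0.15 (interval -0.00 to 0.31, adjusted p = 0.0824), which missed the threshold. It passed with upper-quartile scaling (0.21, adjusted p = 0.0191) and turned to -0.05 with library-size scaling (adjusted p = 0.609). KRT19 was higher with E2 than with PPT (log2 difference 0.39, adjusted p = 7.41e-05). It was also higher with DPN than with PPT (0.24, adjusted p = 0.0144), a call lost without PPT library 2 (adjusted p = 0.0848), DPN library 1 (adjusted p = 0.0891) or DPN library 2 (adjusted p = 0.0610). KRT19 made up 6.91% of the type I level in the control, 11.98% with E2, 6.39% with PPT and 11.6% with DPN.

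KRT7, the type II keratin of bile ducts, had 1 count in 1 DPN library and none in the other libraries, and KRT81 had at most 2 counts in any library. Both were under the floor of 3 counts, which amounts to 0.0967 to 0.134 CPM depending on the library, so neither was tested and no fold is given. Of the 9 bile duct and progenitor markers, 8 were tested. The summed level of the list was 828 to 870 CPM in the control, 1462 to 1467 with E2, 1158 to 1232 with PPT and 1569 to 1637 with DPN. SPP1 was the largest part in every group, at means of 268 CPM in the control, 536 with E2, 813 with PPT and 1110 with DPN. SOX9 went from a mean of 225 CPM to 112 with PPT and 159 with DPN, and ANXA4 from 201 to 119 and 168. With E2, 7 of the 8 rose and 1 fell, and with PPT and with DPN 2 rose and 3 fell. Over all genes, 30.8% rose and 31.8% fell with E2, 22.9% and 22.8% with PPT, and 24.4% and 24.1% with DPN. CFTR, the marker of this list that was not tested, had at most 3 counts in any library. The part of these markers in the KRT19 result was not tested.

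KRT10 lies on chromosome 17 (40818117 to 40822614, minus strand). It was at 22.2 and 24.6 CPM in the control, 14.8 and 16.3 with E2, 16.1 and 22.2 with PPT, and 30.6 and 32.5 with DPN. The E2 libraries were below the control and the DPN libraries above it. KRT10 fell by 0.58 ± 0.13 on the log2 scale with E2 (adjusted p = 0.000301) and rose by 0.43 ± 0.12 with DPN (adjusted p = 0.00399), and the 2 compounds differed by -1.02 (adjusted p = 9.11e-08, 2.02-fold). The rise with DPN missed the threshold without control library 1 (0.36, adjusted p = 0.0584). The PPT libraries were far apart: the difference from the control was -0.28 (95% interval -0.54 to -0.03, adjusted p = 0.0643), and it was -0.54 without PPT library 2 (adjusted p = 0.00133). KRT10 passed as lower with E2 than with PPT (log2 difference -0.30, adjusted p = 0.0469), a call lost with RLE scaling (adjusted p = 0.0594), with DESeq2 (adjusted p = 0.121), without PPT library 2 (-0.05, adjusted p = 0.764) and without any E2 or DPN library (adjusted p from 0.0534 to 0.228). KRT10 was higher with DPN than with PPT (log2 difference 0.72, adjusted p = 4.01e-05).

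The antisense gene KRT10-AS1 overlaps KRT10. Its counts were 692 and 649 in the control, 635 and 704 with E2, 651 and 493 with PPT, and 514 and 368 with DPN. KRT10-AS1 rose by 0.39 with E2 (adjusted p = 0.0185) and fell by 0.54 with DPN (adjusted p = 0.00283), opposite in sign to KRT10 in both. Its raw counts with E2 overlapped those of the control, so the rise with E2 rests on the scaling. The TMM factors were 1.05 in both control libraries and 0.891 and 0.900 with E2. The KRT10-AS1 change under other scalings is not given. Reads of the overlapping part cannot be told apart between the genes if the strand was not used.

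Of the 9 members, KRT8 and KRT10 had a window in the RefSeq promoter table (GRCh38.p14). The KRT8 window lies 21393 bases from its canonical start and is not shown. The 250 bases before the KRT10 start are shown because KRT10 was the member that E2 and DPN moved in opposite directions. They lie at chr17:40822615-40822864 and are read along the gene on the minus strand, with the matches to TATAAA and CACCC in capitals.
KRT10: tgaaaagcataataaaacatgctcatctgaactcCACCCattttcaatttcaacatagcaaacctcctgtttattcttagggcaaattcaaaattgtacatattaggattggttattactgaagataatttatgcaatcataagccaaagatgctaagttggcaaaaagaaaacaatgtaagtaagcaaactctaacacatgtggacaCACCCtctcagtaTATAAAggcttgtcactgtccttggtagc
Counted back from the start, the TATAAA match began at base -29, and CACCC matches began at bases -216 and -42. Both strands were searched, and among 35116 windows of the same length TATAAA occurred in 10.7% and CACCC, a letter string of KLF factors, in 54.7%. The KRT10 window held no TGACC, the single arm of the estrogen response element, which occurred in 32.6% of windows, and no GGTCA and TGACC with any 3 bases between them, the palindrome, which occurred in 0.0399%. It also held no TGANTCA, the AP-1 letters, found in 6.57% of windows, no GGGCGG, the GC box, found in 42.6%, and no TTCNNNGAA, the STAT letters, found in 6.57%. No other motif was searched, and none of the letters overlapped.

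KRT80, a type II keratin found at cell borders, was at 24.9 and 26.4 CPM in the control, 19.0 and 15.8 with E2, 22.8 and 32.5 with PPT, and 17.5 and 19.1 with DPN. It lies on chromosome 12 (52168996 to 52192014, minus strand). The E2 and DPN libraries were below all others, and the PPT libraries lay on either side of the control. KRT80 fell by 0.56 ± 0.13 on the log2 scale with E2 (adjusted p = 0.000712) and by 0.49 ± 0.13 with DPN (adjusted p = 0.00296). With PPT the difference was 0.11 (95% interval -0.16 to 0.37, adjusted p = 0.521), and it was 0.34 without PPT library 1 (adjusted p = 0.0279) and -0.17 without PPT library 2 (adjusted p = 0.324). E2 and DPN differed by -0.07 (interval -0.36 to 0.21, adjusted p = 0.653). KRT80 was lower with E2 than with PPT (log2 difference -0.67, adjusted p = 9.79e-05). It was also lower with DPN than with PPT (log2 difference -0.60, adjusted p = 0.000692), and without PPT library 2 this became -0.32 (adjusted p = 0.0665).

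KRT23, a type I keratin encoded on chromosome 17 (40922700 to 40937646, minus strand), was higher with PPT. Its levels were 7.90 and 6.51 CPM in the control, 5.95 and 4.67 with E2, 13.0 and 11.8 with PPT, and 8.97 and 7.15 with DPN. Both PPT libraries were above all others. KRT23 rose by 0.78 ± 0.16 on the log2 scale with PPT (adjusted p = 0.000294, 1.71-fold), and it was 2.33-fold lower with E2 than with PPT (log2 difference -1.22, adjusted p = 8.4e-07). It fell by 0.44 ± 0.18 with E2 (adjusted p = 0.0341). That call was lost with DESeq2 (adjusted p = 0.0958), without control library 1 (-0.30, adjusted p = 0.259) and without E2 library 2 (-0.28, adjusted p = 0.275). With DPN the difference was 0.16 (95% interval -0.18 to 0.51, adjusted p = 0.454). KRT23 was also lower with DPN than with PPT (log2 difference -0.62, adjusted p = 0.00364, and adjusted p = 0.0759 without DPN library 2) and lower under E2 when set against DPN (-0.60, adjusted p = 0.0046). The last call was lost without E2 library 2 (adjusted p = 0.0820) or DPN library 1 (adjusted p = 0.0785).

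**Figure D3:**
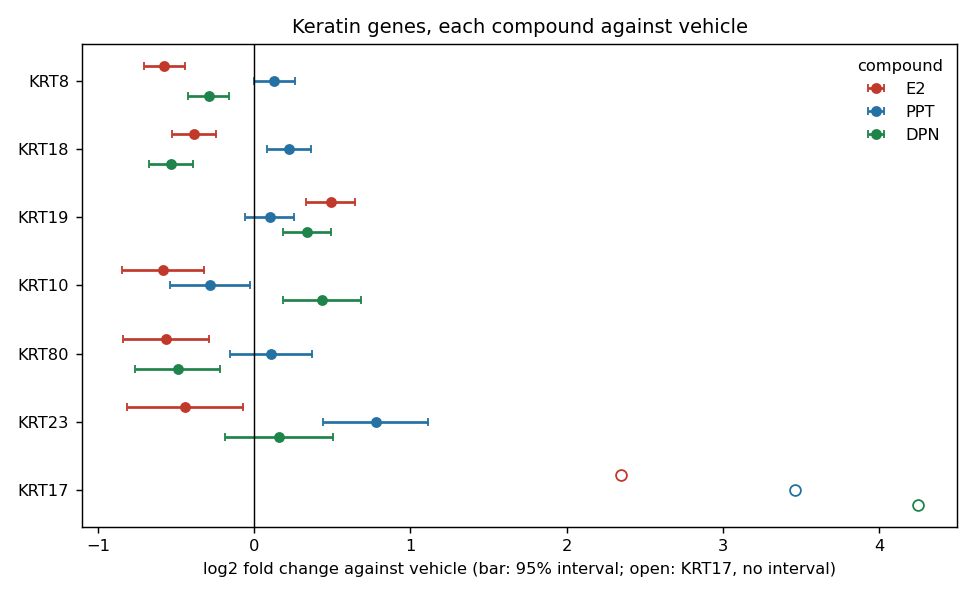
Log2 fold change of each tested keratin against the control (vehicle), with 1 row per gene and 1 colour per compound. Bars are 95% intervals from the edgeR fit of 8 libraries, and the open points of KRT17 carry none because these values chose the gene. E2 and DPN lie below 0 for KRT8, KRT18 and KRT80 and above 0 for KRT19, and in KRT10 they lie on opposite sides of 0.

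KRT17 aside, 6 members had enough counts to be tested, and they were counted at an adjusted p under 0.05 by edgeR's quasi-likelihood test over 15460 genes. With E2, 1 was higher and 5 lower, where 30.8% of all tested genes were higher and 31.8% lower. With PPT, 2 were higher and 0 lower, where 22.9% of all tested genes were higher and 22.8% lower. At an unadjusted p under 0.05, 1 member, KRT10, was lower with PPT, and DESeq2 called 0 at the adjusted threshold. With DPN, 2 were higher and 3 lower, where 24.4% of all genes were higher and 24.1% lower. The median log2 difference of these 6 members was -0.50 for E2, 0.12 for PPT and -0.07 for DPN, beside medians over all tested genes of -0.00, 0.01 and -0.00.

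Between compounds, all 6 differed between E2 and PPT, where 62.1% of all genes did. Between DPN and PPT 6 differed, where 37.8% of all genes did, and between E2 and DPN 3 differed, where 63.9% of all genes did. Their medians were -0.64, -0.51 and -0.18 on the log2 scale, beside -0.01, -0.01 and 0.03 over all genes. The 3 comparisons share libraries. Scaling by library size alone moved the median E2 change of all genes by -0.22, and the higher share of the genes changed by E2 went from 49.3% to 33.6%. The same share went from 48.4% to 34.3% between E2 and PPT and from 51.0% to 37.7% between E2 and DPN. KRT19 was still 0.26 higher with E2 under that scaling (adjusted p = 0.00363).

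The other keratin genes were nearly silent. Of 47 in the files, 27 had no count, 41 never exceeded 3 counts and 3 were tested. KRT15, a basal type I keratin, had 4 and 16 counts in the control, 25 and 39 with E2, 7 and 2 with PPT, and 20 and 6 with DPN. With E2 it rose by 2.04 ± 0.67 on the log2 scale (adjusted p = 0.010). KRT37, a hair keratin, had 4 and 0 counts in the control, 10 and 18 with E2, 2 and 8 with PPT, and 5 and 3 with DPN, and it passed the filter only through its E2 libraries. KRT5, the usual type II partner of basal keratins, had no count. Of 8 keratin pseudogenes in the files 2 were tested, and KRT8P41 rose by 0.90 with PPT (adjusted p = 0.0355), with 57 and 74 counts in the control and 161 and 67 with PPT. These groups overlapped, and the rise rests on PPT library 1.

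Genes that anchor keratins to junctions were also counted. Of 22 desmosome and plakin genes 18 were tested, and 12 rose and 3 fell with E2, 7 rose and 5 fell with PPT, and 6 rose and 4 fell with DPN. The shares over all genes were 30.8% higher and 31.8% lower with E2, 22.9% and 22.8% with PPT, and 24.4% and 24.1% with DPN, and they hold for the lists that follow. The median log2 differences of the 18 were 0.63, 0.26 and 0.17. DSP, desmoplakin, which ties keratins to the desmosome, went from 569 ± 13.6 CPM in the control to 2610 ± 30.7 with E2 (SD, n = 2), a rise of 2.20 ± 0.06 on the log2 scale (adjusted p = 5.16e-21). In the same libraries KRT8 was lower. With PPT and DPN, DSP differed by 0.04 (adjusted p = 0.651) and -0.11 (adjusted p = 0.126).

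Among the other plakins, which link filaments to membranes and to other cytoskeletal fibres, DST rose under E2 by 1.92, under PPT by 1.61 and under DPN by 0.92 (adjusted p of at most 6.45e-12). PPL, periplakin, rose by 1.75, 0.89 and 0.93 (adjusted p of at most 3.23e-08). PLEC, plectin, rose by 1.58, 0.58 and 0.44 (adjusted p of at most 0.000103).

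Of 17 other intermediate filament genes 10 were tested, and 3 rose and 3 fell with E2, 2 rose and 3 fell with PPT, and 1 rose and 4 fell with DPN. These counts with E2 are near the all-gene shares of 30.8% and 31.8%. Their medians were -0.02, -0.45 and -0.40. NES, nestin, a filament of progenitor cells, rose under E2 by 0.79, under PPT by 1.89 and under DPN by 1.52 (adjusted p of at most 2.9e-06). LMNB1, a nuclear lamin, fell with each compound, with log2 fold changes of -1.67, -1.53 and -1.81 (adjusted p of at most 3.22e-14). IFFO2, a member of the family with no settled role, rose by 1.19 with E2 and was lower with the other two, at -0.69 with PPT and -0.39 with DPN (adjusted p of at most 0.00204).

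All 15 genes of keratin binding and regulation were tested, and 5 rose and 5 fell with E2, 5 rose and 3 fell with PPT, and 5 rose and 2 fell with DPN. With E2 both are near the all-gene shares of 30.8% and 31.8%. Their medians were -0.04, 0.14 and -0.02. SFN, 14-3-3 sigma, an adaptor that binds keratin 17 in mouse skin cells, had 89 and 87 counts in the control, 45 and 46 with E2, 624 and 631 with PPT, and 627 and 649 with DPN. It rose by 2.92 ± 0.14 on the log2 scale with PPT (adjusted p = 2.5e-15) and by 2.92 ± 0.14 with DPN (adjusted p = 2.7e-15) and fell by 0.56 ± 0.20 with E2 (adjusted p = 0.0155), where KRT17 was higher in both libraries. PLK1 and AURKB, mitotic kinases that phosphorylate filament proteins, fell with each compound. The log2 fold changes for E2, PPT and DPN in turn were -2.43, -2.01 and -3.41 in PLK1 (adjusted p of at most 5.27e-16) and -2.21, -2.00 and -3.02 in AURKB (adjusted p of at most 4.6e-09).

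Of 22 epithelial transcription factors 12 were tested, and 9 rose and 2 fell with E2, 3 rose and 3 fell with PPT, and 4 rose and 3 fell with DPN. With PPT both are near the all-gene shares of 22.9% and 22.8%, and with E2 those shares were 30.8% and 31.8%. Their medians were 0.85, 0.18 and 0.16. KLF5, a factor of gut and basal epithelium, rose under E2 by 3.13, under PPT by 0.70 and under DPN by 1.22 (adjusted p of at most 0.000665). ELF3, an epithelial Ets factor, rose by 2.37 with E2 (adjusted p = 8.74e-16), and its differences of -0.15 with PPT (adjusted p = 0.346) and 0.10 with DPN (adjusted p = 0.517) did not pass. FOSL2 and JUN, subunits of AP-1, rose with E2 by 2.63 (adjusted p = 1.62e-15) and 1.41 (adjusted p = 2.16e-14). The E2 change was above the PPT and DPN changes for each of these 4 factors. They were picked from the 12 by the smallest p against the control, which favours the compound with large changes. Their part in the KRT17 levels was not tested.

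**Figure D4:**
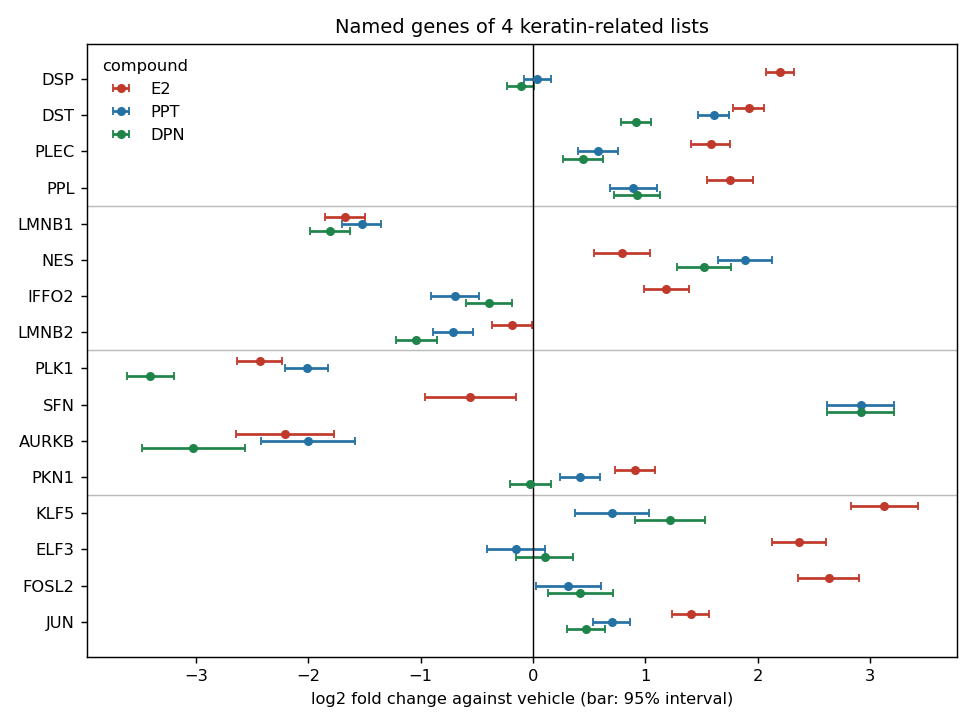
Log2 fold change against the control (vehicle) for named genes that anchor, bind or regulate keratins, with 1 colour per compound and 95% intervals from the edgeR fit of 8 libraries. DSP and ELF3 lie far above 0 with E2 and near 0 with PPT and DPN, and SFN lies at 2.92 with PPT and DPN and at -0.56 with E2.

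Over the 8 libraries, which fall into 4 groups of 2, likeness to a keratin was measured as Pearson's r of log2 CPM among 10698 genes with a mean of at least 5 CPM. It describes mainly the order of the 4 groups. HPCAL1 (r = 0.990), CYB561D1 (r = 0.990) and SPP1 (r = 0.986) were most like KRT17. NOC2L (r = 0.989), NUP88 (r = 0.987) and BCS1L (r = 0.987) were most like KRT8, and EOLA1 (r = 0.980), SLC38A9 (r = 0.976) and FTH1P3 (r = 0.975) were most like KRT23. Among the members, KRT8 and KRT18 had r = 0.845, KRT8 and KRT19 r = -0.858, and KRT8 and KRT17 r = -0.0928.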

How the data were processed

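RNA of HepG2 cells was sequenced by the authors from strand-specific libraries as single-end 50 bp reads. The deposited values are raw read counts per Entrez gene ID. The submitters' processing notes name GRCh38.p10 and DESeq2, and the aligner, the counter and the use of strand are not given in the sources used here. Of the IDs, 99.4% matched a RefSeq symbol.

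One edgeR 4.0.16 model (R 4.3.3) was fitted to 8 libraries, with TMM scaling, filterByExpr (minimum count 10, minimum total 15) and the quasi-likelihood F test. Adjusted p-values are Benjamini-Hochberg over the 15460 genes tested in each contrast, and 0.05 was the threshold. The common biological coefficient of variation was 6.80%. The SE is the log2 fold change divided by the square root of F. Levels are CPM after TMM scaling, and per-length values were divided by the canonical GENCODE 44 transcript. Floors and intervals cover counting error and the spread of these libraries only. The steps were tested on simulated data.

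Alternatives were RLE, upper-quartile and library-size scaling, other filters, DESeq2 1.42.0, pairwise fits, a stricter threshold, a replicate block and leaving out each library. The text names all 9 members, up to 4 genes of each keratin-related list with the smallest p against the control, and the 3 genes most like KRT17, KRT8 and KRT23. Cell type markers were named as examples and not by this rule. KRT10-AS1, the tested keratins KRT15 and KRT37, the pseudogene KRT8P41 and the relatives KRT14 and KRT16 were named besides. Members and lists were chosen with earlier results of these data known. Protein sequences were not used here.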

Additional observations from a re-analysis of the deposited data

How the results depend on the processing

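The pairwise fits, RLE, upper-quartile and library-size scaling, the filter of 1 CPM in at least 2 libraries and DESeq2 kept each count of members, KRT17 included, within 1.5 times its value. KRT17, chosen for its rise, is 1 member of each higher count in this paragraph, whereas the counts given earlier leave it out. It is also 1 member of each count different between compounds at an adjusted p under 0.05. With it, 7 members differed between E2 and PPT, 4 between E2 and DPN and 7 between DPN and PPT. The count lower with PPT went from 0 to 1, KRT10, without the filter on low counts. At a log2 fold change above 1.5 and an adjusted p under 0.01, the members higher were 1 with E2, 1 with PPT and 1 with DPN (7.15%, 1.90% and 1.92% of all genes). Each was KRT17, which was chosen for its rise with every compound, so these restate the choice. Those lower were 0 with E2 and 0 with DPN. Those different were 0 between E2 and PPT, 1 between E2 and DPN and 0 between DPN and PPT. That 1 was KRT17 as well, in values from the treated libraries that chose it. The shares over all genes for these lower and different calls are not given, so the counts are not read further. Leaving out each library in turn gave 2 to 2 higher and 4 to 5 lower with E2, 2 to 4 higher and 0 to 1 lower with PPT, 2 to 3 higher and 3 to 3 lower with DPN, 6 to 7 different between E2 and PPT, 3 to 5 between E2 and DPN and 5 to 7 between DPN and PPT. Replicate numbers share no stated culture or day, and deviations of same-numbered libraries correlated between -0.116 and 0.0296 over genes. With the replicate number as a block, 1 member, KRT10, was lower with PPT, and the other counts of members were as without it. With the numbers crossed between the control and PPT, an alternative chosen after seeing the data, 1 was lower. Of 679 alternative values for single members, 643 kept their side of the threshold, 13 gained a call and 23 lost it. Signs turned in 5, none of which was called: KRT18 and KRT19 between E2 and DPN with library-size scaling (-0.05 each), KRT23 with DPN without DPN library 1 (-0.01), KRT80 with PPT without PPT library 2 (-0.17) and KRT80 between E2 and DPN without E2 library 2 (0.05). The cause of these changes was not tested. KRT17 in the control rests on 11 and 17 counts, which limits its fold changes.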
